A study of Mus musculus with 4 samples.

Results

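T lineage cells that had formed with Tcf1 and without an added Notch ligand were compared with progenitors of the kind they came from. The comparison used 3 of the study's 4 arrays: 2 of the T lineage cells and 1 of the progenitors. The samples were taken by their labels. All cells came from the bone marrow of C57BL/6 mice, and every group began as lymphoid-primed multipotent progenitors (LMPPs), sorted as lineage-negative, Sca+, kit+ and high for Flt3. The LMPP sample was a pool of wild-type cells that had spent 48 hours in the medium used for transduction, with IL-3, IL-6, SCF, Flt3-ligand and Polybrene, and no virus is named for it. The Tcf1 cells were LMPPs that received the Tcf1-VEX retrovirus, were sorted for the VEX reporter and grew on OP9, a bone marrow stromal line that lacks a Notch ligand. IL7 and Flt3L were added, and on day 10 living CD45.2+ cells with Thy1 and CD25 and without Mac1 and Gr1 were sorted. They were measured as 2 biological replicates, and the labels do not say whether these share a pool of LMPPs or a transduction. The single control array, given here for orientation, held cells from the same sort gate and day that carried the empty VEX vector and grew on OP9-DL4, stroma that presents the Notch ligand DL4. Tcf1 was expressed from a retrovirus and not from its own gene.

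Tcf1 is a DNA-binding protein of the TCF/LEF family and is encoded by Tcf7. During normal T cell development it is switched on by Notch signals in early thymic progenitors and takes part in the start of the T lineage program. A progenitor that enters this lineage also changes what it takes up and burns, which matrix and which cells it binds, and which receptors and exchange factors pass signals inward. Genes of these functions, grouped as metabolism, transport, adhesion and signalling, are described here before the usual lineage markers.

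The comparison carries several differences at once. Tcf1 cells differed from the LMPP sample in virus, stroma, cytokines, time in culture and sort gate, and these cannot be told apart in a difference from LMPPs. In sorted populations, more cells of a type and more RNA per cell cannot be told apart either. Values are log2 signal per gene, so a difference of 1 is 2-fold, and the 4 arrays were close in scale, with medians between 7.47 and 7.59. The replicates differed with an SD of 0.24 across genes, and 65 of 19938 genes were 2-fold apart between them. The sort gate was visible in the data: Il2ra, which encodes CD25, read 6.88 in the LMPP array and 12.91 and 12.99 in Tcf1 replicates 1 and 2. Thy1 read 8.13 in LMPPs and 12.38 and 12.53 in the Tcf1 arrays. Of 17 T lineage markers 11 rose and 2 fell. The rises include the gate genes Il2ra and Thy1, for which the cells were sorted. They also include Cd3g, which rose by 0.94 to a mean of 6.56, below the median gene at 7.52. Its difference from control cells was -6.44. Cd3e, Ptcra and Zap70 differed from LMPPs by 0.11, 0.07 and -0.16 and did not pass. The falls were Cd5 and Cd28, with differences of -1.48 and -1.52. Of 14 progenitor markers 1 rose and 7 fell. Flt3 was among the latter, at 11.91 in LMPPs, 10.97 and 11.03 in Tcf1 cells and 6.75 in control cells. Kit, the other receptor of the LMPP gate, rose by 1.54 (SE 0.16, adjusted p = 0.00472, limma). The other 6 markers did not pass. Among them, Cd34 read 12.67 in LMPPs, 12.76 and 12.86 in Tcf1 cells and 8.91 in control cells. Hoxa9 read 10.23, 10.78, 10.74 and 7.27 in the same order. The transduced gene, Tcf7, is not analysed here, and its level gives no check of the labels.

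Of 19938 genes, 610 passed the test of Tcf1 cells against LMPPs (limma, Benjamini-Hochberg adjusted p under 0.05), which is 3.06% of all genes. Of these, 349 rose and 261 fell. In all 610 each Tcf1 replicate differed from LMPPs in the direction of their mean, which the test itself ensures. Replicates on opposite sides of the LMPP value give a spread too wide to pass. When each array was centred on its median, 607 rose and 849 fell, so the split between directions depended on scaling. The smallest difference that passed was 1.78-fold. In 61 of the 610 the mean of the higher group was at or below the median gene, at 7.52, so these calls rest on dim signal. They include Abcg2, Car5b, Cd3g, Cd55, Cdh17, Gstm5, Hgf, Jam2, Ms4a7, S100a8 and Tjp1. Without a test, 578 genes were at least 2-fold apart (2.9% of all), 357 higher (1.79%) and 221 lower (1.11%). The majority depended on the replicate: without Tcf1 replicate 2, 292 were higher and 313 lower, and without replicate 1, 450 were higher and 187 lower. The spread behind every test came from 1 pair of arrays, and the LMPP array had no replicate of its own. When all 35399 probe sets were tested together, 0 passed after adjustment by limma, with 3317 at an unadjusted p under 0.05.

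**Figure D1:**
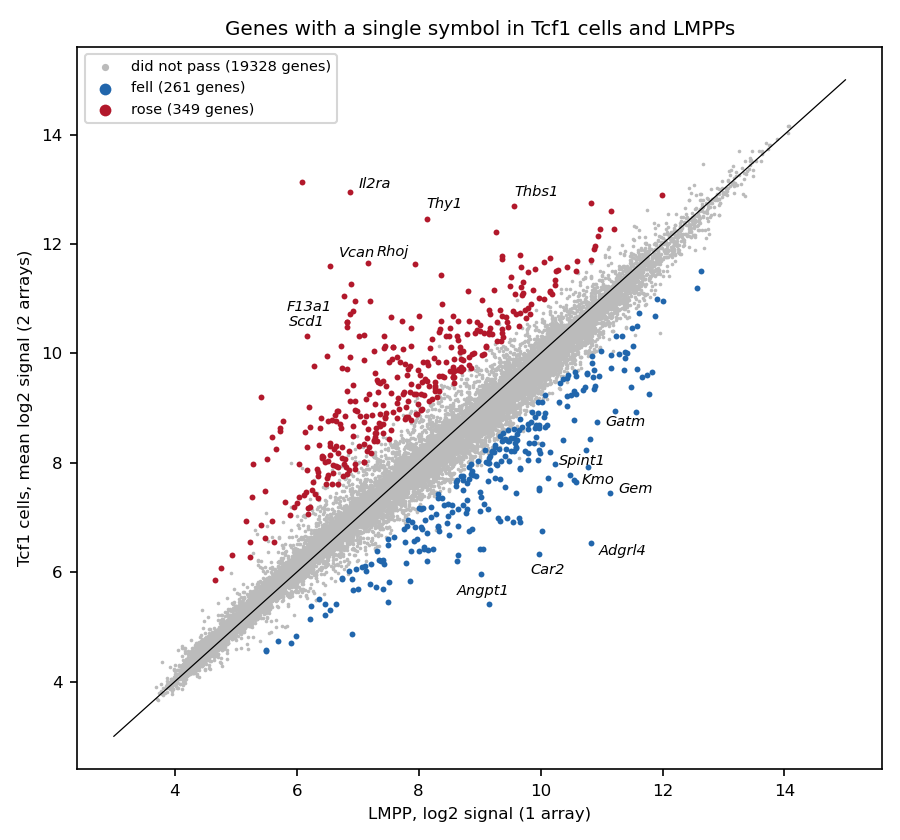
Each point is 1 gene, with its log2 signal in the single LMPP array on the horizontal axis and its mean log2 signal in the 2 Tcf1 arrays on the vertical axis; the line marks equal signal, red points are the 349 genes that rose and blue points the 261 that fell. Vcan, Rhoj, F13a1 and Scd1 lie far above the line at low LMPP signal, and Adgrl4, Gem and Kmo lie far below it at high LMPP signal.

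The 20 largest rises outside the usual lineage markers were in genes of mixed function. Vcan, which encodes the matrix proteoglycan versican, read 6.55 in the LMPP array, 11.56 and 11.64 in the Tcf1 arrays and 9.42 in the control array. It was low in LMPPs alone and rose by 5.05 (SE 0.16, adjusted p = 9.48e-05, limma), a 33.2-fold difference. Rhoj, a GTPase of the Cdc42 subfamily best known from endothelium, read 7.17 in LMPPs, 11.53 and 11.79 in Tcf1 cells and 7.74 in control cells. Both Tcf1 arrays stood far above the other arrays, and the rise over LMPPs was 4.49 (SE 0.18, adjusted p = 0.000222, limma). Timp3, a matrix-bound inhibitor of metalloproteinases, read 7.20 in LMPPs, 10.75 and 11.15 in Tcf1 cells and 10.89 in control cells. The control value lay between those of the Tcf1 replicates, and Timp3 rose over LMPPs by 3.75 (SE 0.21, adjusted p = 0.000471, limma).

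F13a1, the transglutaminase subunit of coagulation factor XIII, read 6.92 in LMPPs, 10.82 and 10.72 in Tcf1 cells and 6.74 in control cells. Tgfbi, a secreted matrix protein named for its induction by TGF beta, had the same order, with 8.36 in LMPPs, 11.39 and 11.49 in Tcf1 cells and 7.85 in control cells. The rises over LMPPs were 3.85 for F13a1 (SE 0.16, adjusted p = 0.000222, limma) and 3.08 for Tgfbi (SE 0.16, adjusted p = 0.00041, limma). Ms4a4c and Ms4a6d, members of a family of membrane proteins with several spans, were likewise high in the Tcf1 arrays alone. Ms4a4c read 6.73, 10.07, 10.19 and 6.30 in LMPPs, both Tcf1 replicates and control cells, and Ms4a6d read 6.87, 9.88, 10.00 and 5.95 in the same order. Their relative Ms4a6b was high in the control array too, with 6.49 in LMPPs, 9.94 and 9.99 in Tcf1 cells and 10.09 in control cells. The Ms4a genes, like the Akr1c and Psg genes named next, belong to families of similar sequence, so the signal of a single member is uncertain. Macrophage markers, given in full further on, were also highest in the Tcf1 arrays and lowest in control cells, with mean levels of 8.41 and 8.64 against 7.66 in LMPPs and 6.92 in control cells, and their part in the rises of F13a1, Tgfbi and these genes was not tested.

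Papss2, which makes the sulphate donor used to sulphate proteoglycans, read 7.94 in LMPPs, 11.26 and 12.02 in Tcf1 cells and 9.11 in control cells. The Tcf1 replicates were further apart for this gene, and the rise was 3.70 (SE 0.30, adjusted p = 0.00152, limma). Akr1c12, an aldo-keto reductase, read 5.42 in LMPPs, 8.91 and 9.49 in Tcf1 cells and 9.85 in control cells, so it was high in all T lineage arrays. Enah, which promotes the growth of actin filaments at the cell edge, rose by 3.23 (SE 0.17, adjusted p = 0.00041, limma) from 7.10 to 10.23 and 10.42, and was at 9.73 in control cells. Thbs1, the matrix glycoprotein thrombospondin-1, was already bright in LMPPs at 9.57 and reached 12.72 and 12.67 in Tcf1 cells and 12.12 in control cells.

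Airn, a long noncoding RNA known for silencing the paternal copy of Igf2r in imprinting, rose by 3.29 (SE 0.16, adjusted p = 0.000308, limma), with 7.02 in LMPPs, 10.36 and 10.26 in Tcf1 cells and 9.23 in control cells. Igf2r, the cation-independent mannose 6-phosphate receptor that carries enzymes to lysosomes and clears IGF2, rose by 2.08 (SE 0.17, adjusted p = 0.0017, limma), from 7.36 to 9.35 and 9.55. These genes overlap on opposite strands at chr17:12741311-12769706 (GRCm38.p6, RefSeq annotation). Which transcript gave which part of the signal is therefore uncertain. The interferon-induced genes Rtp4, Oas2 and Oasl2 were also among the 20 largest rises, with differences of 4.15, 3.67 and 3.12. The control array was above LMPPs for each, at 9.56, 8.31 and 9.91 against 6.16, 6.82 and 7.54. Tcf1 cells differed from it by 0.75, 2.18 and 0.76. The 20 largest rises were completed by Rasgrp1 and Scd1, described with their pathways, and by Psg17 and Fam169b, with differences of 3.83 and 3.75. Psg17 is a pregnancy-specific glycoprotein of the immunoglobulin family.

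The 20 largest falls were likewise in genes of mixed function. Adgrl4, an adhesion G protein-coupled receptor of endothelium, read 10.82 in LMPPs, 6.30 and 6.77 in Tcf1 cells and 6.03 in control cells. It fell by 4.29 (SE 0.22, adjusted p = 0.000397, limma), a 19.5-fold difference, and was high in LMPPs alone. Gem, a small GTPase that restrains voltage-gated calcium channels, read 11.14 in LMPPs, 7.16 and 7.71 in Tcf1 cells and 6.93 in control cells. Car2, the cytosolic carbonic anhydrase II, read 9.97 in LMPPs, 6.06 and 6.61 in Tcf1 cells and 7.54 in control cells, and fell by 3.64 (SE 0.24, adjusted p = 0.00086, limma).

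Angpt1 and Nrp1 stood out among the falls because the control array kept the LMPP level. Angpt1, the ligand of the receptor Tie2, read 9.03 in LMPPs, 5.82 and 6.10 in Tcf1 cells and 9.11 in control cells. It fell by 3.07 against LMPPs (SE 0.19, adjusted p = 0.000648, limma), and its difference from control cells in the same fit was -3.15 (adjusted p = 0.000423, limma). Nrp1, a co-receptor for semaphorins and VEGF, read 9.66 in LMPPs, 6.95 and 6.88 in Tcf1 cells and 9.70 in control cells. It fell by 2.75 against LMPPs (SE 0.16, adjusted p = 0.000633, limma) and differed from control cells by -2.78 (adjusted p = 0.000401, limma). Scin, which severs actin filaments, showed the same order with a wider replicate gap, at 10.78 in LMPPs, 7.45 and 8.40 in Tcf1 cells and 10.94 in control cells. Mctp2, a membrane protein with calcium-binding C2 domains, fell by 2.57 (SE 0.16, adjusted p = 0.000711, limma), to 6.41 and 6.45, against 8.51 in control cells. Over all genes, 4.38% passed the test of Tcf1 cells against control cells.

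Spint1, an inhibitor of serine proteases at the cell surface, read 10.58 in LMPPs, 7.56 and 7.75 in Tcf1 cells and 7.45 in control cells. P2rx3, an ATP-gated cation channel, read 9.54 in LMPPs, 6.92 ± 0.11 in Tcf1 cells (SD, n = 2) and 6.54 in control cells. It has 2 probe sets, and with their mean in place of the brighter one its difference shrank from -2.61 to -1.41 and still passed. B3gnt5, which starts the lacto-series glycolipids, fell by 2.53 (SE 0.19, adjusted p = 0.00129, limma). Ccnd1, the G1 cyclin D1, fell by 2.71 (SE 0.19, adjusted p = 0.000969, limma), from 10.49 to 7.63 and 7.92. Havcr2, which encodes the receptor Tim-3, was the least even of these, with 10.31 in LMPPs and 7.18 and 8.04 in Tcf1 cells. The other members of the 20 largest falls were Kmo and Slc7a3, described below, and Mn1, Ctr9, Gcsam, Gca, Tmem119 and Ica1, with differences between -2.66 and -2.43.

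**Figure D2:**
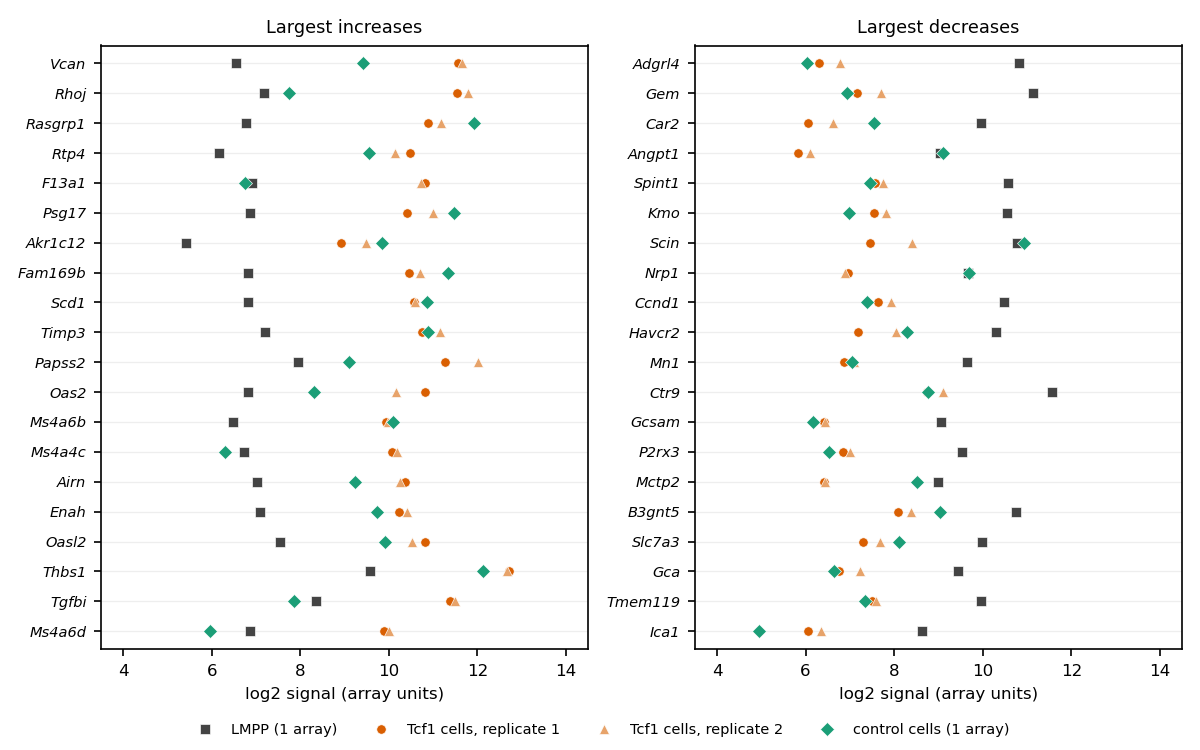
Log2 signal of the 20 largest rises (left) and the 20 largest falls (right) in each array: squares are LMPPs, circles and triangles are Tcf1 replicates 1 and 2, and diamonds are control cells. Control cells lie near the Tcf1 cells for genes such as Timp3, Scd1 and Adgrl4, and near LMPPs for Rhoj, F13a1, Tgfbi, Angpt1 and Nrp1.

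The 35 lists of metabolism, transport, adhesion, signalling, cell structure, stress and synthesis held 1555 measured genes, of which 77 rose and 73 fell. That is 9.65%, beside 3.06% of all genes. The lists were chosen with earlier results of these data known, and they differ from all genes in brightness. The number past the test differed with brightness. From the dimmest to the brightest quintile, of 3987 or 3988 genes each, 5, 17, 76, 133 and 118 rose and 14, 37, 73, 96 and 41 fell. The part of either in the share of 9.65% was not tested. By function, 13 of 396 metabolism genes rose and 19 fell, 7 of 205 transport genes rose and 16 fell, 27 of 298 adhesion genes rose and 17 fell, and 25 of 427 signalling genes rose and 14 fell. Over all genes 1.75% rose and 1.31% fell, and these shares stand beside each later count.

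**Figure D3:**
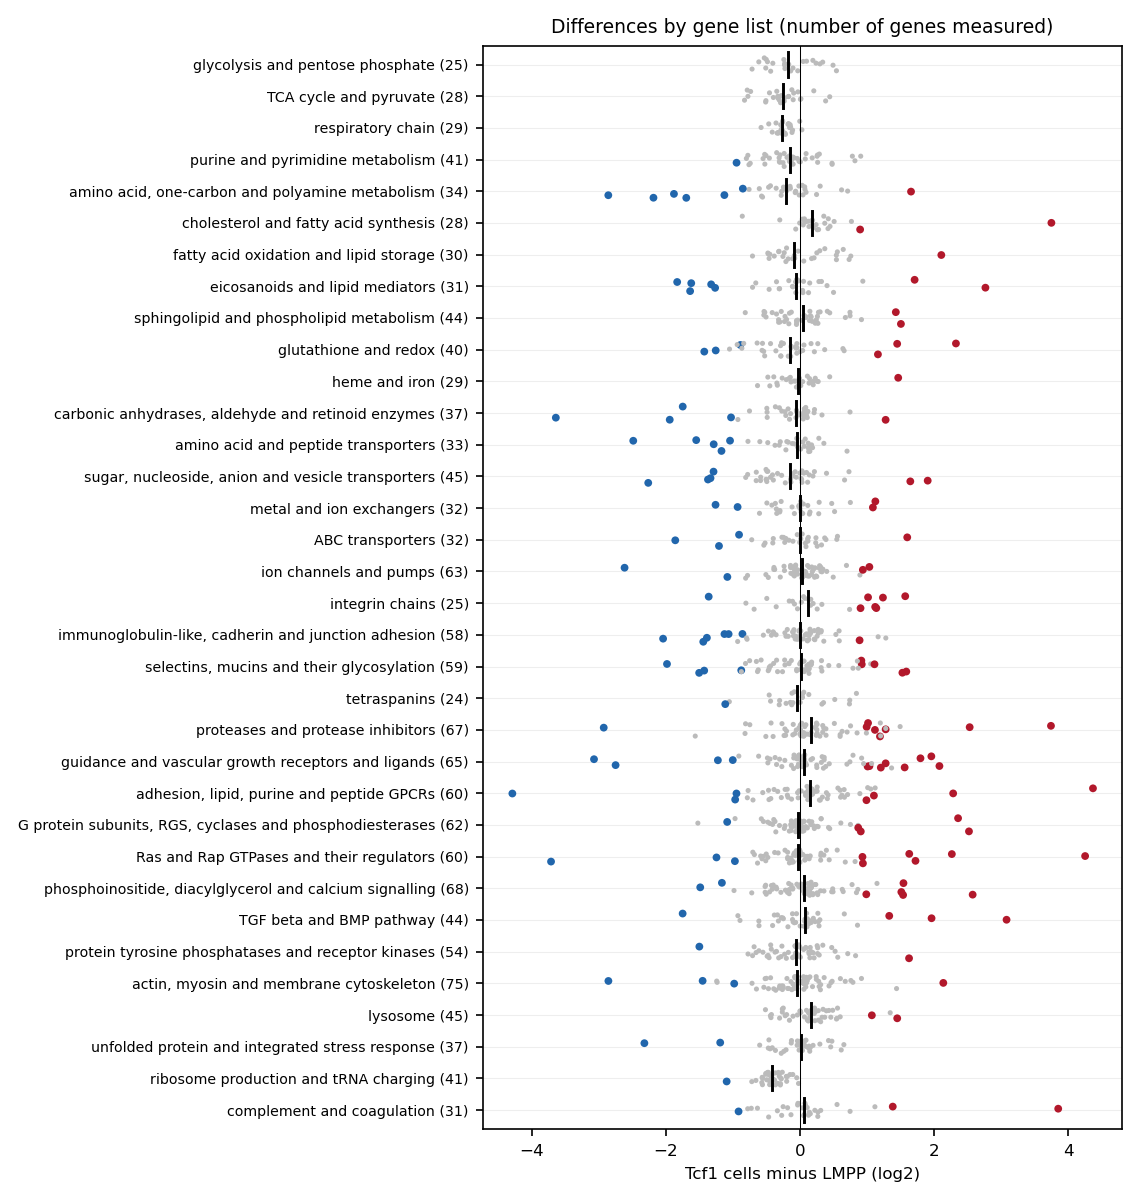
Each row is 1 gene list (1 signalling list is not shown) with the number of its genes measured, each point is 1 gene at its difference between Tcf1 cells and LMPPs on the log2 scale, and the black bar is the list's median; red points rose, blue points fell and grey points did not pass. Glycolysis, the TCA cycle and the respiratory chain have no coloured point, all of the ribosome and tRNA genes lie left of 0, and the Ras list has single genes far out on either side of a median near 0.

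No gene on the lists of glycolysis, the TCA cycle and the respiratory chain passed the test, and with 3.06% of all genes past it, a count of 0 in lists of this size is near the background. In glycolysis and the pentose phosphate pathway 0 of 25 genes passed, with differences from -0.71 to 0.55, a median of -0.17, and 2 genes higher and 8 lower at an unadjusted p under 0.05 (limma). In the TCA cycle 0 of 28 passed (median -0.25, 1 higher and 7 lower at an unadjusted p under 0.05, limma), and in the respiratory chain 0 of 29 (median -0.26, 0 higher and 3 lower). Ldha, the lactate dehydrogenase of glycolytic cells, read 13.36 in LMPPs, 12.87 and 12.89 in Tcf1 cells and 12.49 in control cells, and Atp5b, the catalytic subunit of ATP synthase, read 13.20, 13.12, 13.04 and 12.94 in the same order. These genes are bright, and the median over the brightest quintile of genes was -0.11. Under a prior spread with a trend in expression 4 genes of glycolysis fell, and under median centring 4 of the TCA cycle fell. At least 1 TCA cycle gene also fell under quantile normalization, the mean of probe sets and the trend prior. The respiratory chain had 0 under all of these.

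Ribosome production and tRNA charging had the median furthest from 0 of the functional lists. All 41 genes read lower in Tcf1 cells than in LMPPs, with a median of -0.41 beside 0.00 over all genes and -0.11 over the brightest quintile. Replicate 1 by itself gave a median of -0.41 and replicate 2 one of -0.39, and the median stayed between -0.45 and -0.30 under every alternative tried. The single differences were small: Rrs1, a ribosome assembly factor, was the only member to pass, falling by 1.09 (SE 0.19, adjusted p = 0.0308, limma), while 22 had an unadjusted p under 0.05. The 15 aminoacyl-tRNA synthetases lay between -0.72 and -0.10. The control array was lower than LMPPs too, with a median difference of -0.51.

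The lists of amino acid, one-carbon and polyamine metabolism and of amino acid and peptide transporters were set up apart and joined for a count. Together they held 67 measured genes, of which 1 rose and 11 fell, beside 1.75% and 1.31% of all genes. By itself the metabolism list had a median of -0.21, with 24 of 34 genes below LMPPs. The transporter list had a median of -0.04, with 18 of 33 below. Kmo, which converts kynurenine in the breakdown of tryptophan, read 10.54 in LMPPs, 7.55 and 7.82 in Tcf1 cells and 6.98 in control cells, and fell by 2.85 (SE 0.18, adjusted p = 0.000763, limma). Slc7a3, an importer of arginine and lysine, read 9.98 in LMPPs, 7.30 and 7.69 in Tcf1 cells and 8.12 in control cells, and fell by 2.48 (SE 0.21, adjusted p = 0.00173, limma). Both were lower in all T lineage arrays than in LMPPs. Slc7a11, the cystine importer of system xc-, read 9.01 in LMPPs, 7.43 and 7.50 in Tcf1 cells and 6.97 in control cells.

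Asns, which makes asparagine, fell too, with 12.63 in LMPPs, 11.51 and 11.50 in Tcf1 cells and 10.83 in control cells, a difference of -1.12 (SE 0.16, adjusted p = 0.0146, limma). Cth, which makes cysteine from cystathionine, fell by 1.88 (SE 0.17, adjusted p = 0.00224, limma), to 7.20 and 7.05, and was lower still in control cells. Gatm, the first enzyme of creatine synthesis, read 10.93 in LMPPs, 8.54 and 8.95 in Tcf1 cells and 6.74 in control cells. For these 3 genes the Tcf1 cells lay between LMPPs and control cells. The mitochondrial folate enzymes Aldh1l2 and Mthfd1l fell by 1.69 and 0.85, and the carriers Slc1a4, Slc6a9 and Slc16a10, for neutral amino acids, glycine and aromatic amino acids, fell by 1.28, 1.17 and 1.04.

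The exception was Gldc, the glycine decarboxylase, which read 6.64 in LMPPs, 7.97 and 8.63 in Tcf1 cells and 7.04 in control cells and rose by 1.66 (SE 0.27, adjusted p = 0.0261, limma). The bulk carriers did not pass: Slc7a5 and Slc3a2, the chains of the leucine importer, differed by -0.17 and -0.29. Psat1 and Shmt2, enzymes of serine synthesis and use, differed by -0.19 and -0.24. Of the list of unfolded protein and integrated stress response genes 0 of 37 rose and 2 fell. They were Chac1, which degrades glutathione, at 10.30 in LMPPs and 9.09 and 9.13 in Tcf1 cells, and Vldlr, a lipoprotein receptor, at 8.64 in LMPPs and 6.34 and 6.30 in Tcf1 cells. Xbp1, a transcription factor of the unfolded protein response, differed by 0.46 and did not pass.

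**Figure D4:**
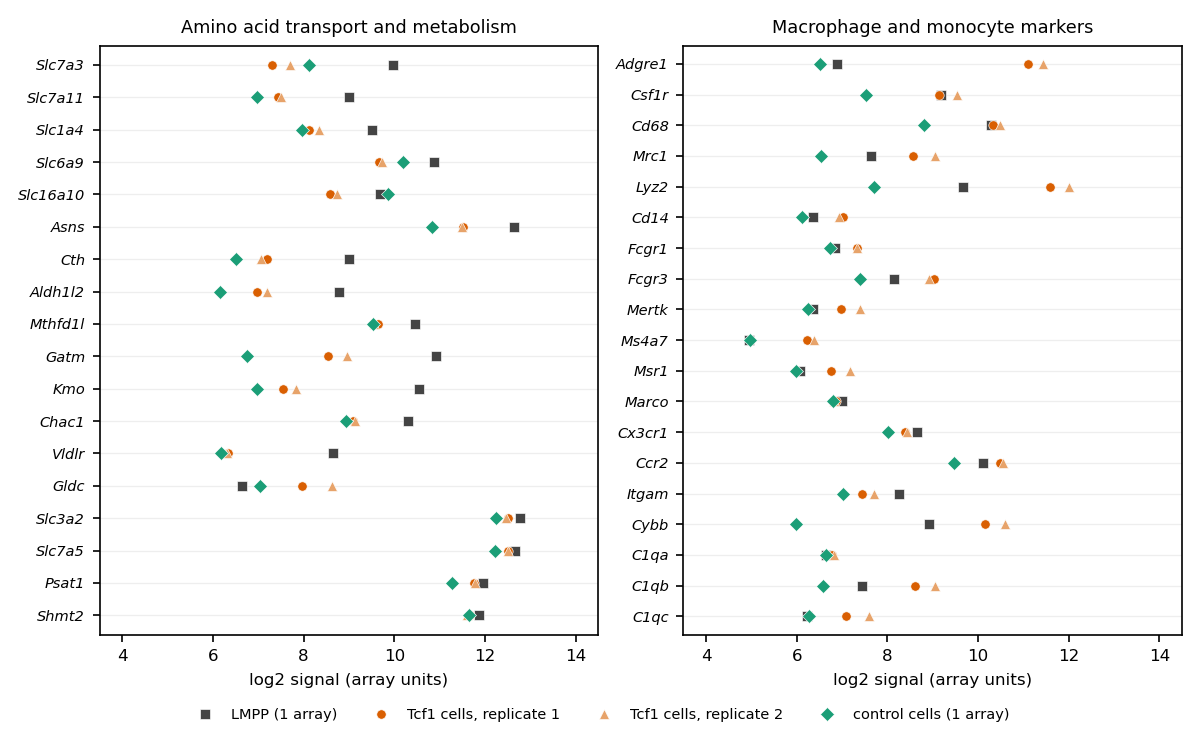
Log2 signal in each array of amino acid genes (left) and of the 19 measured macrophage and monocyte markers (right), with squares for LMPPs, circles and triangles for Tcf1 replicates 1 and 2 and diamonds for control cells. On the left the LMPP square is the highest point for every gene from Slc7a3 to Vldlr except Slc16a10, and on the right Adgre1, Lyz2, Cybb and C1qb are highest in the Tcf1 arrays.

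The amino acid response element is a short promoter sequence of genes induced when amino acids run short, and its core was searched as TGATGNAA, on both strands, in the 250 bases before each RefSeq start (GRCm38.p6). Of 15614 measured genes with a promoter sequence 3.14% held it, beside 13 of 260 genes that rose (5%) and 13 of 192 that fell (6.77%). Of the amino acid genes that fell, 2 of 8 with a promoter sequence held it, Asns and Slc7a11, and of the others in these lists 1 of 45. Genes of other lists held it too, among them Aqp9, Prps1 and Rhobtb1, which fell, and Ctsl, Fut8, Gpr132, Pld4 and Slc9a9, which rose. The share in the stress response list, which holds Chac1 and Vldlr, was not counted. The following stretches, read 5′ to 3′ along the gene's strand, show matches in Asns, Slc7a11, Chac1 and Vldlr only. Matching bases (or their reverse complement) are in capitals.
Asns, chr6:7693213-7693244, minus strand: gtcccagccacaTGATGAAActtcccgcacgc
Slc7a11, chr3:50443660-50443691, minus strand: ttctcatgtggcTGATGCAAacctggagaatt
Chac1, chr2:119351037-119351068, plus strand: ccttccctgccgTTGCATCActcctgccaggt
Vldlr, chr19:27216808-27216839, plus strand: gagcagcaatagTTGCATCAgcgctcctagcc
Along the gene's strand the Asns match begins 23 bases before the start of its gene, the nearest of these, and the matches of Slc7a11, Chac1 and Vldlr begin 66, 193 and 200 bases before theirs. Slc7a11 holds another match on the opposite strand that begins at 47 bases. A match in letters is a description of the promoter and shows no binding.

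In lipid metabolism 2 of 5 measured acyl desaturases rose, and the other 3 lay between -0.86 and 0.42. Scd1, which puts the first double bond into stearic acid, read 6.82 in LMPPs, 10.56 and 10.59 in Tcf1 cells and 10.86 in control cells. It was low in LMPPs alone and rose by 3.75 (SE 0.16, adjusted p = 0.000222, limma). Scd2, its paralogue, rose from 11.99 to 12.93 and 12.84 and reached 13.04 in control cells. No other gene of the 28 in cholesterol and fatty acid synthesis passed, although 24 read above LMPPs and the list median was 0.18. Fads2 and Elovl5, which make polyunsaturated fatty acids, differed by 0.42 and 0.45. Ppargc1a, a coactivator of mitochondrial and fatty acid oxidation genes, rose by 2.11 (SE 0.24, adjusted p = 0.00631, limma), from 6.65 to 8.49 and 9.03, and stayed at 6.90 in control cells. Pld3 and Pld4, lysosomal relatives of phospholipase D, rose by 1.43 and 1.51.

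Of 31 genes of eicosanoids and lipid mediators 2 rose and 5 fell, beside 1.75% and 1.31% of all genes, and 24 did not pass. Pla2g4a, the phospholipase that releases arachidonic acid, read 10.50 in LMPPs, 9.19 and 9.28 in Tcf1 cells and 8.90 in control cells, and fell by 1.26 (SE 0.16, adjusted p = 0.01, limma). Of the synthases, Tbxas1, for thromboxane, fell from 9.07 to 7.28 and 7.20, and Hpgds, for prostaglandin D2, from 8.08 to 6.29 and 6.63. Among receptors, Ptger3, for prostaglandin E2, fell by 1.63 (SE 0.17, adjusted p = 0.00413, limma). Tbxa2r, for thromboxane, read 9.35 in LMPPs, 8.10 and 7.96 in Tcf1 cells and 10.08 in control cells, so the control array was not below LMPPs.

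Cysltr1, the receptor for leukotriene D4, went the other way, with 7.10 in LMPPs, 9.78 and 9.97 in Tcf1 cells and 9.68 in control cells, and rose by 2.77 (SE 0.17, adjusted p = 0.0007, limma). Pla2g7, which hydrolyses platelet-activating factor, read 6.16 in LMPPs, 7.53 and 8.22 in Tcf1 cells and 5.93 in control cells, and rose by 1.71 (SE 0.28, adjusted p = 0.0252, limma). The leukotriene genes Lta4h and Alox5ap were bright in all arrays and differed by 0.06 and 0.29.

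In glutathione and redox metabolism 3 of 40 genes rose and 3 fell. Mgst2, a microsomal transferase that can make leukotriene C4, read 8.81 in LMPPs, 11.21 and 11.07 in Tcf1 cells and 11.36 in control cells, a rise of 2.33 (SE 0.17, adjusted p = 0.00111, limma). Gclc, the catalytic subunit of the first step of glutathione synthesis, fell by 0.89 and Gstm5, a glutathione transferase, by 1.25. Members of the phagocyte oxidase parted: Cybb, its membrane subunit, rose by 1.45 while Ncf1, a cytosolic subunit, fell by 1.42. In control cells both were below LMPPs, Cybb at 5.98 against 8.92. Of 9 carbonic anhydrases 0 rose and 3 fell: Car2 as above, Car1 from 8.15 to 6.45 and 6.35, and Car5b by 1.02, a call lost under quantile normalization (adjusted p = 0.0518, limma). Dhrs3, which turns retinal back to retinol, fell from 10.36 to 8.42 and 8.43, and Cyp11a1, the first enzyme of steroid synthesis, rose from 6.79 to 8.01 and 8.13. Trf, which encodes transferrin, rose by 1.47 and Prps1, which makes the ribose phosphate donor for nucleotides, fell by 0.94.

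Of 45 transporters of sugars, nucleosides, anions and vesicle cargo 2 rose and 4 fell. Slc2a3, the high-affinity glucose transporter GLUT3, read 9.41 in LMPPs, 7.99 and 8.25 in Tcf1 cells and 8.58 in control cells, and fell by 1.29 (SE 0.18, adjusted p = 0.0142, limma). Slco3a1, an organic anion carrier, read 10.24 in LMPPs, 7.88 and 8.08 in Tcf1 cells and 9.90 in control cells, so it was low in the Tcf1 arrays alone. Slc14a1, the urea transporter, was also lowest in the Tcf1 arrays, with 10.70, 9.12, 9.54 and 11.94 in the same order. Spns2, which exports sphingosine 1-phosphate, fell by 1.33, to 8.25 and 8.29 from 9.60. Mfsd2a, a carrier of lysophosphatidylcholine with omega-3 fatty acids, rose by 1.91 (SE 0.17, adjusted p = 0.00216, limma), from 7.82 to 9.65 and 9.80.

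Pumps of the ABC family changed in both directions. Abcb1b, a multidrug exporter long used to mark early progenitors by dye efflux, read 9.42 in LMPPs, 7.52 and 7.61 in Tcf1 cells and 6.68 in control cells, and fell by 1.86 (SE 0.16, adjusted p = 0.00216, limma). Abcg2, the exporter behind the side population of stem cell assays, fell by 1.20, and Abcc1 fell by 0.91, a call lost under quantile normalization (adjusted p = 0.0537, limma). Abcg1, which exports cholesterol, rose from 8.64 to 10.13 and 10.36 and was at 10.55 in control cells. Of the ion carriers, the sodium-proton exchanger Slc9a9 rose by 1.13 and its relative Slc9a7 fell by 1.26. The sodium-calcium exchanger Slc8a1 rose by 1.09, not past the test with the mean of its probe sets (adjusted p = 0.0617, limma). The zinc carrier Slc39a14 fell by 0.93, not past it under quantile normalization (adjusted p = 0.0535, limma). Among 63 channels and pumps, the potassium channel Kcnk5 and the gap junction protein Gja1 rose by 1.04 and 0.94, and P2rx3 and the water and glycerol channel Aqp9 fell by 2.61 and 1.08.

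Integrins, the heterodimers that bind matrix and counter-receptors, had the largest share past the test among the functional lists. Of 25 chains 6 rose and 1 fell, beside 1.75% and 1.31% of all genes. Itgb5, a partner of the alpha V chain that binds vitronectin, read 8.79 in LMPPs, 10.23 and 10.49 in Tcf1 cells and 7.62 in control cells, and rose by 1.57 (SE 0.18, adjusted p = 0.00662, limma). Itgb3, another alpha V partner, read 8.27 in LMPPs, 9.29 and 9.53 in Tcf1 cells and 10.58 in control cells. Itgb2, the common chain of the leukocyte integrins, rose by 1.24, and the laminin-binding Itga6 by 1.02. Itga2, a collagen receptor chain, rose by 1.12, and Itgae, which pairs with beta 7 to bind E-cadherin, by 0.91. Itga1, the other collagen receptor chain of T cells, fell by 1.36 (SE 0.19, adjusted p = 0.0125, limma), from 7.92 to 6.42 and 6.71. The bright chains Itga4 and Itgal differed by -0.49 and 0.26 and did not pass.

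Of 58 immunoglobulin-like, cadherin and junction genes 1 rose and 6 fell, beside 1.75% and 1.31% of all genes. The list as a whole had a median of 0.00, with 29 genes below and 29 above LMPPs. Cdh17, the liver-intestine cadherin, read 7.49 in LMPPs, 5.51 and 5.39 in Tcf1 cells and 5.45 in control cells, a fall of 2.04 (SE 0.16, adjusted p = 0.00156, limma). Alcam, the ligand of CD6, fell by 1.44, the claudin Cldn12 by 1.38, the junction protein Jam2 by 1.12 and the junction scaffold Tjp1 by 0.85. The one to rise was Sirpa, the receptor for CD47, at 9.76 in LMPPs, 10.56 and 10.74 in Tcf1 cells and 7.46 in control cells.

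Of 59 genes of selectins, mucins and their glycosylation 5 rose and 4 fell, beside 1.75% and 1.31% of all genes. Fut8, which adds the core fucose of N-glycans, read 10.16 in LMPPs, 11.70 and 11.79 in Tcf1 cells and 11.75 in control cells, and rose by 1.59 (SE 0.16, adjusted p = 0.004, limma). Mgat4a, which adds an N-glycan branch, and St3gal3, a sialyltransferase, rose by 0.92 each. Gcnt2, which branches poly-N-acetyllactosamine into I antigen, read 9.13 in LMPPs and 7.04 and 7.26 in Tcf1 cells, was lower still in control cells, and fell by 1.98 (SE 0.17, adjusted p = 0.00219, limma). Gcnt1, which branches O-glycans, fell by 1.42, and St3gal5, which starts the gangliosides, fell by 1.50. Of coat proteins, the sialomucin Podxl rose by 1.53 and the proteoglycan Sdc1 by 1.11. The hyaluronan receptor Cd44 fell by 0.87, with 10.32 in LMPPs, 9.39 and 9.51 in Tcf1 cells and 7.90 in control cells. Lgals1, which binds galactosides, read 12.67 in LMPPs and 13.47 and 13.46 in Tcf1 cells and did not pass (adjusted p = 0.0555, limma).

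Of 67 proteases and their inhibitors 7 rose and 1 fell, beside 1.75% and 1.31% of all genes. Mmp8, the neutrophil collagenase, read 7.58 in LMPPs, 10.15 and 10.09 in Tcf1 cells and 5.13 in control cells, and rose by 2.53 (SE 0.16, adjusted p = 0.00076, limma), with the order of the macrophage markers. Of 16 neutrophil markers Mmp8 rose, 6 fell and 9 did not pass. Mmp19 rose by 1.28, and the cathepsins Ctsl and Ctss, which cut invariant chain, by 1.20 and 1.02. Dpp4, the surface peptidase CD26, read 8.82 in LMPPs, 9.77 and 10.11 in Tcf1 cells and 11.97 in control cells, so Tcf1 cells lay between the groups.

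Guidance and vascular growth genes had 8 rises and 4 falls among 65, beside 1.75% and 1.31% of all genes. Of the neuropilins, co-receptors for different semaphorins and VEGF forms, Nrp1 fell as described, while Nrp2 read 6.33 in LMPPs, 7.69 and 8.09 in Tcf1 cells and 6.22 in control cells and rose by 1.56 (SE 0.21, adjusted p = 0.0115, limma). The control array thus stood beside LMPPs for both neuropilins. Sema7a, a membrane-anchored semaphorin that binds integrins, read 7.28 in LMPPs, 8.74 and 9.42 in Tcf1 cells and 10.30 in control cells, and Sema4a rose by 1.01. Vegfa, the main vascular growth factor, rose by 1.28 (SE 0.17, adjusted p = 0.0124, limma), from 9.88 to 11.05 and 11.26. Hgf, the ligand of Met, fell by 1.00 and Egfl7, a secreted protein of endothelium, by 1.22.

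Of 6 genes of the insulin-like growth factor axis, a grouping made after the values were seen, 4 rose. Igf1, the ligand, read 6.36 in LMPPs, 7.95 and 8.70 in Tcf1 cells and 6.23 in control cells, and rose by 1.96 (SE 0.30, adjusted p = 0.019, limma). Its receptor Igf1r differed by 0.35 and did not pass, and Igf2r is described above with Airn. Igfbp4, a secreted binding protein, rose by 1.21 from a bright 10.94, and Igf2bp3, an RNA-binding protein that holds IGF2 messages, by 1.04. Igfbp7 read 9.62 in LMPPs, 10.59 and 11.38 in Tcf1 cells and 12.00 in control cells, a difference of 1.37 that did not pass (adjusted p = 0.0789, limma).

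Ras activation was among the signalling functions with members far out in both directions. Of 60 genes 6 rose and 3 fell, beside 1.75% and 1.31% of all genes. The RasGRP proteins load Ras or Rap with GTP in response to diacylglycerol and calcium, and all 4 passed. Rasgrp1, the form that links the T cell receptor to Ras, read 6.78 in LMPPs, 10.89 and 11.18 in Tcf1 cells and 11.92 in control cells, and rose by 4.26 (SE 0.19, adjusted p = 0.000222, limma). Rasgrp3, best known from B cells and macrophages, read 6.68 in LMPPs, 8.72 and 9.17 in Tcf1 cells and 6.10 in control cells, and rose by 2.27 (SE 0.22, adjusted p = 0.0032, limma). Rasgrp4, best known from mast cells, rose by 0.94 and was at 7.88 in control cells against 8.22 in LMPPs. Rasgrp2, which acts on Rap1, was the one to fall, with 10.55 in LMPPs, 9.20 and 9.42 in Tcf1 cells and 10.65 in control cells, a difference of -1.24 (SE 0.18, adjusted p = 0.0142, limma). The control array was far above LMPPs for Rasgrp1, at the LMPP level for Rasgrp2 and below it for Rasgrp3 and Rasgrp4.

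Among GTPases and their brakes, Rras2, a Ras relative, rose by 1.63 (SE 0.17, adjusted p = 0.00477, limma), from 8.15 to 9.68 and 9.89, and Sipa1l1, which switches off Rap, rose by 1.73. Rapgef3, a Rap exchange factor opened by cyclic AMP, rose by 0.94, and Rasal1, a Ras GTPase-activating protein, fell by 0.97. Gem fell most, as given above.

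Downstream of diacylglycerol, 2 of 7 protein kinase C genes rose and 1 fell. Prkca, the classical alpha form, read 7.88 in LMPPs, 10.28 and 10.64 in Tcf1 cells and 11.45 in control cells, and rose by 2.58 (SE 0.20, adjusted p = 0.00136, limma). Prkch, the eta form, read 9.58 in LMPPs, 10.96 and 11.22 in Tcf1 cells and 12.20 in control cells. Prkce, the epsilon form, fell by 1.48 (SE 0.16, adjusted p = 0.00499, limma), from 8.32 to 6.86 and 6.82. Dgka, which removes diacylglycerol, rose by 1.54, with 9.17 in LMPPs, 10.48 and 10.95 in Tcf1 cells and 12.20 in control cells. For Prkca, Prkch and Dgka the Tcf1 cells lay between LMPPs and control cells, and below control cells by 0.99, 1.10 and 1.49 (adjusted p = 0.044, 0.0202 and 0.0145, limma). Inpp4b, a phosphoinositide phosphatase, rose by 1.55, and Plcb4, a phospholipase C, fell by 1.16.

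The cyclic nucleotide phosphodiesterases, which break down cyclic AMP and cyclic GMP, rose where they passed, 4 of 12 with 0 falling. Pde3b read 8.39 in LMPPs, 10.91 ± 0.13 in Tcf1 cells (SD, n = 2) and 10.57 in control cells, and rose by 2.52 (SE 0.17, adjusted p = 0.000883, limma). Pde2a, activated by cyclic GMP, read 7.28 in LMPPs, 9.46 and 9.82 in Tcf1 cells and 9.17 in control cells, and rose by 2.36 (SE 0.20, adjusted p = 0.00181, limma). The cyclic AMP-specific Pde4b and Pde4d rose by 0.91 and 0.87, and Pde4d did not pass with the mean of its probe sets (adjusted p = 0.0938, limma). The other 8 lay between -0.41 and 0.76. The 4 measured adenylate cyclases, which make cyclic AMP, lay between -0.39 and 0.61 and none passed. The RasGRP, protein kinase C, phosphodiesterase and cyclase groupings were also made after the values were seen, as were those of acyl desaturases and carbonic anhydrases.

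The list of adhesion, lipid, purine and peptide G protein-coupled receptors had 4 rises and 3 falls among 60, the adhesion receptors Adgre1 (a rise) and Adgrl4 (a fall) among them. P2ry10, a receptor for lysophosphatidylserine, read 6.66 in LMPPs, 8.76 and 9.14 in Tcf1 cells and 9.94 in control cells, and rose by 2.29 (SE 0.20, adjusted p = 0.00219, limma). Gpr65 and Gpr132, related receptors that respond to acid or lipids, rose by 0.99 and 1.11. Gpr84, a receptor for medium-chain fatty acids, fell by 0.96, and F2rl3, the thrombin receptor PAR4, by 0.94. In the TGF beta pathway the co-receptors parted: Tgfbr3, or betaglycan, rose from 6.98 to 8.90 and 8.99, and Eng, or endoglin, fell from 9.80 to 7.96 and 8.15. Their differences were 1.97 (SE 0.16, adjusted p = 0.00167, limma) and -1.75 (SE 0.17, adjusted p = 0.00338, limma), and control cells stood near Tcf1 cells for both, at 9.06 and 8.33. Tgfb2, a ligand, rose by 1.33, and Tgfb1 differed by 0.01.

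**Figure D5:**
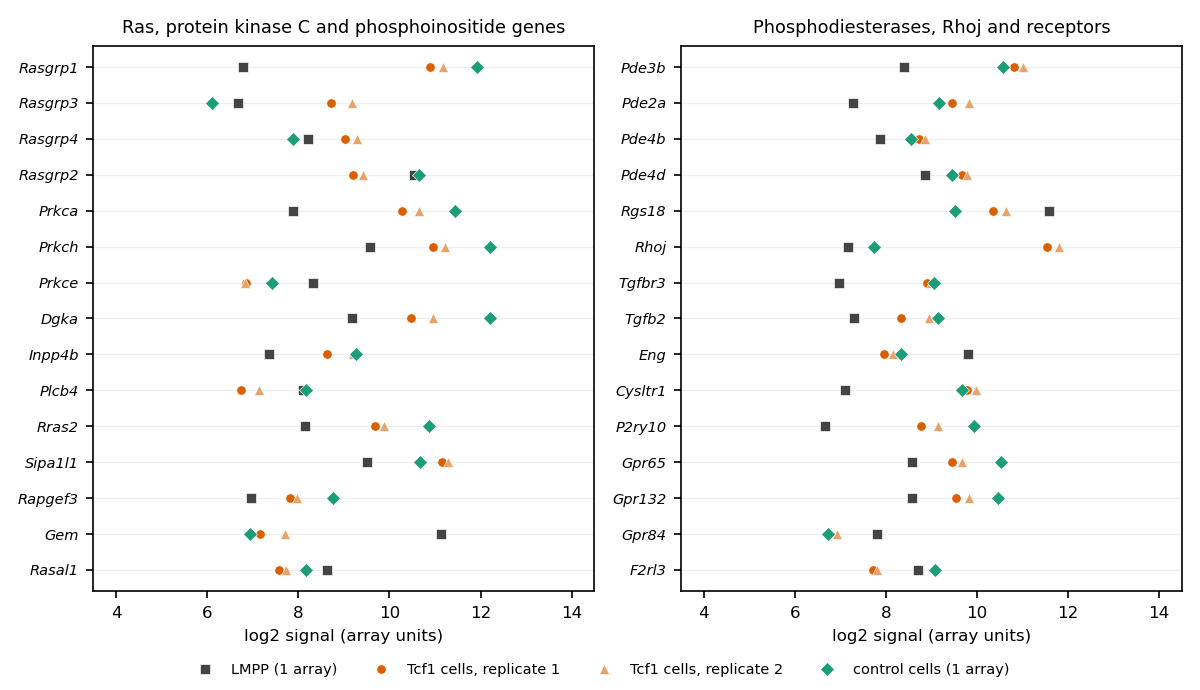
Log2 signal in each array for Ras, protein kinase C and phosphoinositide genes (left) and for phosphodiesterases, Rhoj and receptors (right), with squares for LMPPs, circles and triangles for Tcf1 replicates 1 and 2 and diamonds for control cells. Rasgrp1, Prkca and Dgka are highest in control cells, Rasgrp3 and Rhoj are high in the Tcf1 arrays alone, and Rasgrp2 is low in the Tcf1 arrays alone.

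Of 54 tyrosine phosphatase and receptor kinase genes 1 rose and 1 fell. Ptpn1, or PTP1B, rose by 1.63, from 9.91 to 11.46 and 11.61, and Ptp4a3 fell by 1.50, from 10.90 to 9.37 and 9.44. Of 75 cytoskeleton genes 1 rose, 3 fell and the others did not pass. Fscn1, the actin bundler fascin, read 7.33 in LMPPs, 8.95 and 10.00 in Tcf1 cells and 7.26 in control cells. The replicates were far apart, and its rise of 2.14 (SE 0.38, adjusted p = 0.0358, limma) did not pass under quantile normalization (adjusted p = 0.0544, limma). Besides Scin, its relative Gsn, or gelsolin, fell by 0.98, and Myl4, a myosin light chain, fell by 1.45 while the control array was at 10.41 against 9.92 in LMPPs. Vim, or vimentin, differed by 0.11.

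In the lysosome list 2 of 45 genes rose and 0 fell, with a median of 0.17. They were Ppt1, a thioesterase that removes fatty acids from proteins, by 1.45 and Grn, or progranulin, by 1.08. Of 31 complement and coagulation genes 2 rose and 1 fell. F13a1 and C1qb were the rises. Cd55, a complement inhibitor, was dim in all arrays and fell by 0.91, with 5.49 in LMPPs, 4.52 and 4.63 in Tcf1 cells and 6.73 in control cells.

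Several genes described above as high in the Tcf1 arrays alone are known from macrophages and monocytes, and a list of such markers was read beside them. Of 19 measured markers 6 rose and 0 fell, with a median difference of 0.81. Their mean level was 7.66 in LMPPs, 8.41 and 8.64 in Tcf1 replicates 1 and 2 and 6.92 in control cells. Adgre1, which encodes F4/80, read 6.89 in LMPPs, 11.10 and 11.43 in Tcf1 cells and 6.51 in control cells, and Lyz2 read 9.66, 11.59, 12.01 and 7.71 in the same order. Mrc1, Ms4a7, Cybb and C1qb also rose, by 1.17, 1.37, 1.45 and 1.39. Csf1r and Cd68 were near their LMPP level, with differences of 0.15 and 0.12, and C1qa and Marco differed by 0.16 and -0.15. Itgam, which encodes the Mac1 chain removed in the sort, read 8.25 in LMPPs, 7.44 and 7.70 in Tcf1 cells and 7.03 in control cells. Like the mean of these markers, F13a1, Tgfbi, Ms4a4c, Ms4a6d, Rhoj, Igf1, Rasgrp3, Nrp2, Pla2g7, Ppargc1a, Fscn1, Itgb5, Sirpa, Mmp8 and Ctss were higher in Tcf1 cells than in both LMPPs and control cells. Control cells were lowest for all but Rhoj and Ppargc1a, which were lowest in LMPPs. The part of macrophage RNA in these genes was not tested. Of 18 stromal cell markers Thy1, the sort marker, rose and 0 fell, with between 1 and 3 rising under the other scalings, probe set rule and prior tried. The list median was 0.17, 15 of the 18 read above LMPPs, and 4 were higher and 1 lower at an unadjusted p under 0.05 (limma). Fstl1 and Acta2, which encode a secreted glycoprotein and smooth muscle actin, differed by 0.82 and 0.73, and Col1a1 read 8.12 in LMPPs, 8.38 and 8.29 in Tcf1 cells and 8.16 in control cells.

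TCF/LEF proteins bind the core CTTTGAT, which was searched on both strands in the same 250 bases; it shares the letters TGAT with the core above, so that matches can overlap. It was held by 3.32% of the 15614 promoters, by 8 of 260 genes that rose (3.08%) and by 3 of 192 that fell (1.56%). Among genes that rose, the matches of a surface glycoprotein, an enzyme and receptors described here, and of Trat1, an adaptor of the T cell receptor that rose by 2.69 (SE 0.19, adjusted p = 0.00109, limma), read as follows, with the core in capitals.
Psg17, chr7:18821736-18821766, minus strand: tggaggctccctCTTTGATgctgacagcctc
Fut8, chr12:77410022-77410052, plus strand: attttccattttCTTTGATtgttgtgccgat
Nrp2, chr1:62703159-62703189, plus strand: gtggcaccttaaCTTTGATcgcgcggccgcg
Trat1, chr16:48772264-48772294, minus strand: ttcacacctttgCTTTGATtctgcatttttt
The genes that fell with a match were Egfl7, Flt3 and Frmd4b. The share among genes that rose was close to that of all promoters, and nothing about binding follows from these letters.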

How the data were processed

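Each value is a log2 signal for a probe set, deposited by the authors and made with RMA and Partek 6.5, per the submitters' processing notes. No source gives the log base; RMA and the range of 3.44 to 14.45 point to 2. Scanner files, detection calls and the genome build of the probes were not used here. Of 35399 probe sets, 21789 had a single gene symbol (38.4% did not), and the brightest over the 4 arrays stood for each of 19938 genes, with no filter on dim genes. Per the labels' protocols, total RNA was amplified and labelled with Ambion and Affymetrix WT kits.

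Tests used limma 3.58.1 (R 4.3.3): group means of all 4 arrays, moderated by empirical Bayes, with p-values adjusted by Benjamini-Hochberg across the 19938 genes and a threshold of 0.05. The Tcf1 pair gave the fit its 1 residual degree of freedom, and the prior added 5.78, at an SD of 0.141. This treats the single LMPP and control arrays as if they varied like that pair. The number of arrays limits the precision, and p-values measure only the spread between these samples. The test was run on simulated data of this size first. "Rose" and "fell" refer to genes past this test.

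The members and lists were chosen with earlier results of these data known. The 35 functional and 10 marker lists held 1815 entries, of which 119 had no single-gene probe set and are not analysed here. No list test was made. The rule for named genes took, in each direction, the 20 genes past the test that differed most, provided that the Tcf1 replicates did not disagree in sign and the higher group was above the median gene; predicted genes and the usual lineage markers were left out. It added up to 6 members past the test in each list, up to 3 of the brightest others, and the sort gate genes. Further members of the lists, and Trat1 and Frmd4b, were named after their values were seen. Promoter sequences are from RefSeq (GRCm38.p6) and matched 15614 genes by symbol. Alternatives were other scalings, filters, probe set rules and priors, and each Tcf1 array alone. The result of 1 of the signalling lists is not reported here, though its genes are in the totals.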

Additional observations from a re-analysis of the deposited data

How the results depend on the processing

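The number of genes past the test, 610, was 1456 with each array centred on its median (607 higher, 849 lower), 1196 among genes above the 25th percentile, 1189 among genes above the median gene and 936 with a prior that follows a trend in expression. It was 12 without moderation, and 0 when every probe set was tested (limma; 3317 had an unadjusted p under 0.05, beside 2900 of the 19938 genes). Quantile normalization, the mean of a gene's probe sets and a robust prior gave 726, 674 and 612. The filters and the use of every probe set change the number of tests, and the prior spread was estimated anew in each of these fits. The cause of the differences in count was not tested for any setting. The number of genes at least 2-fold apart, 578, lay between 605 and 637 with either Tcf1 replicate left out, while the share that was higher lay between 48.3% and 70.6% (61.8% with both). Of the 181 genes named by the rule or in the text that passed, 5 did not pass under quantile normalization (Abcc1, Car5b, Fscn1, S100a8, Slc39a14). With the mean of their probe sets 2 did not pass (Pde4d, Slc8a1). Under these, median centring, a trend prior or either replicate alone 0 changed sign, which for either replicate alone follows from passing the test. Medians of 18 of the 35 functional lists changed sign in at least 1 alternative, so their direction is not given. No paired analysis was possible because only the Tcf1 arrays carry a replicate number, and LMPPs and control cells have 1 array each. With 1 array of LMPPs, the spread between LMPP preparations was not measured.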
